A study of Mus musculus with 4 samples.

Results

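Cells that sit in connective tissue carry on their surface the enzymes, receptors and inhibitors that decide where fibrin forms and where it is dissolved. The genes described here are Plau, Plat, Plaur, Serpine2, F3, Thbd, Tfpi, Tfpi2 and Procr. They were chosen by name, as rows whose platform annotation gives exactly that 1 symbol, with the row of the highest mean standing for a gene. Of these 9 genes, 8 had such a row and each of those had 1 row, among 19938 genes in all. Serpine2 was not analysed here.

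Tissue plasminogen activator (Plat) and urokinase (Plau) cut plasminogen to plasmin, the protease that dissolves fibrin and attacks matrix proteins, and the urokinase receptor (Plaur) holds urokinase at the cell surface. Clotting outside vessels starts when tissue factor (F3), a membrane protein abundant on stromal cells, binds factor VII. Tissue factor pathway inhibitor (Tfpi) blocks that complex, thrombomodulin (Thbd) turns thrombin towards the activation of protein C, and the endothelial protein C receptor (Procr) presents protein C to it. Fibroblasts express many of these genes, and several of them are also typical of endothelium.

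RNA was measured on 4 Affymetrix arrays. 2 samples, A and B, held total RNA of cultured lung fibroblasts with the oncogenic KrasD12 allele, which the series' design text calls SKY cells, and 2 samples, A and B, that of wild-type (WT) lung fibroblasts. Both lines were grown out of collagenase-digested lungs of mice 3 to 4 weeks old, kept in medium with 20% serum, and left untreated. The titles name 1 line per genotype (493 for KrasD12 and 494 for WT), so an effect of the allele and one of the line cannot be told apart. The labels do not state whether A and B came from separate cultures, and p-values measure only the spread between these samples, which may be technical.

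The deposited values are log2 expression values. They lay higher in KrasD12 than in WT for most genes, with a median difference of 0.26 over all genes as deposited. Quantile normalization, which gives the 4 columns 1 common distribution, brought that median to -0.0038. A gene is therefore said here to have risen or fallen only where limma gave a Benjamini-Hochberg adjusted p under 0.05 in the same direction on both scalings. By that rule 33.9% of all genes were called, 22.4% as rises and 11.5% as falls. All 8 genes lay above 5.15, the level under which the rows of 95% of olfactory and vomeronasal receptor genes lie (the dim level below), in both groups. Every difference is KrasD12 minus WT, and every ± after a difference is limma's moderated standard error with 2 samples per group.

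RefSeq promoter windows of mouse build GRCm38.p6, from 250 bases before to 50 bases after an annotated start, were at hand for 6 of the 9 genes. Those of Plau, Plat and Thbd were not. The printed sequences show the stretches around the AP-1 letters TGANTCA, with N for any base (the same on both strands). These letters are a loose form of the target of the Fos and Jun factors, which act below RAS. They were picked for printing because they stood in windows of F3, Procr, Plaur and Tfpi2. The Tfpi2 match and the first F3 match read TGAATCA, and the others TGAGTCA or TGACTCA. Capitals mark the match. The F3 stretch is chr3:121723287-121723536 (plus strand) and the Procr stretch chr2:155750967-155751216 (plus strand), each being the 250 bases before the start. The Plaur stretch is chr7:24462394-24462440 (plus strand) and the Tfpi2 stretch chr6:3968426-3968472 (minus strand), each 47 bases long.
F3: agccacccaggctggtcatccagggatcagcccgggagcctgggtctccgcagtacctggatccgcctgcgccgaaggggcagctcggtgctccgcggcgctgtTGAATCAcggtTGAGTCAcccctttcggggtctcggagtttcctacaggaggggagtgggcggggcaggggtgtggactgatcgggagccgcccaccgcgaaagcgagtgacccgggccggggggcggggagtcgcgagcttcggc
Procr: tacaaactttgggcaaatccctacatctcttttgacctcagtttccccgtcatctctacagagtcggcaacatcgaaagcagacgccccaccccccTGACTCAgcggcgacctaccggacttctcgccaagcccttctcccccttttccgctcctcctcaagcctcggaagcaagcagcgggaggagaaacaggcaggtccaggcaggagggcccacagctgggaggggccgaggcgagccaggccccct
Plaur: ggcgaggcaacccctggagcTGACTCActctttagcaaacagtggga
Tfpi2: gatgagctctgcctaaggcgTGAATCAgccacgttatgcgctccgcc

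F3 held 2 matches, which begin 146 and 135 bases before the start, and Procr held 1, at 154 bases before it. The Plaur match began 69 bases before the start, and the Tfpi2 match 77 bases before the start of 1 of its 3 windows. Neither of the 2 Tfpi windows held these letters. In all, 4 of the 9 windows of these genes held a match, Serpine2 included among the windows without one. Of 32851 promoter windows of the same length, 7.81% held one. The letters were printed because they matched here, and 2 of the 3 Tfpi2 windows overlap each other. No test was run, so these shares are not read as an enrichment. The ETS-type letters AGGAAG, searched on both strands, stood in the Plaur, Serpine2 and both Tfpi windows and in 35.35% of all windows. GGGCGG, the core of SP and KLF sites, stood on either strand 6 times in the Serpine2 window, 3 times each in those of F3 and Plaur, 2 times in 1 Tfpi2 window, once in each Tfpi window, and in 35.66% of all windows. TATAAA stood in the F3 window, after the annotated start, in 1 Tfpi window, and in 13.62% of all windows. Some neighbouring GGGCGG matches of the Plaur and Serpine2 windows share a base, and no match of one motif overlapped a match of another. As the values below show, F3 fell, Procr rose and Plaur and Tfpi2 were not called. Plat and Thbd, which also fell, had no window to search. Whether AP-1 had a part in these values was not tested.

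Tissue factor, thrombomodulin and tissue plasminogen activator transcripts fell in KrasD12 fibroblasts, and the protein C receptor transcript rose. F3 was 2.62-fold lower, Thbd 1.75-fold lower, Plat 1.63-fold lower and Procr 1.39-fold higher on the deposited values. Of the 8 genes, 3 fell, 1 rose and 4 were not called (Plau, Plaur, Tfpi and Tfpi2). The 4 calls among 8 genes lie near the background for genes this bright: of the genes within 0.5 log2 units of each one's mean, between 30.7% and 53.0% were called. The 8 genes had a median difference of -0.11 as deposited, beside 0.26 for all genes, and of -0.34 on quantile values, beside -0.0038. With the deposited values alone 2 of the 8 were called higher and 4 lower, beside 50.1% and 11.9% of all genes, and with quantile values alone 1 was called higher and 5 lower, beside 22.5% and 24.4%. KrasD12 and WT samples did not overlap on the deposited values for 6 of the 8 genes, as for 83.0% of all genes.

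**Figure D1:**
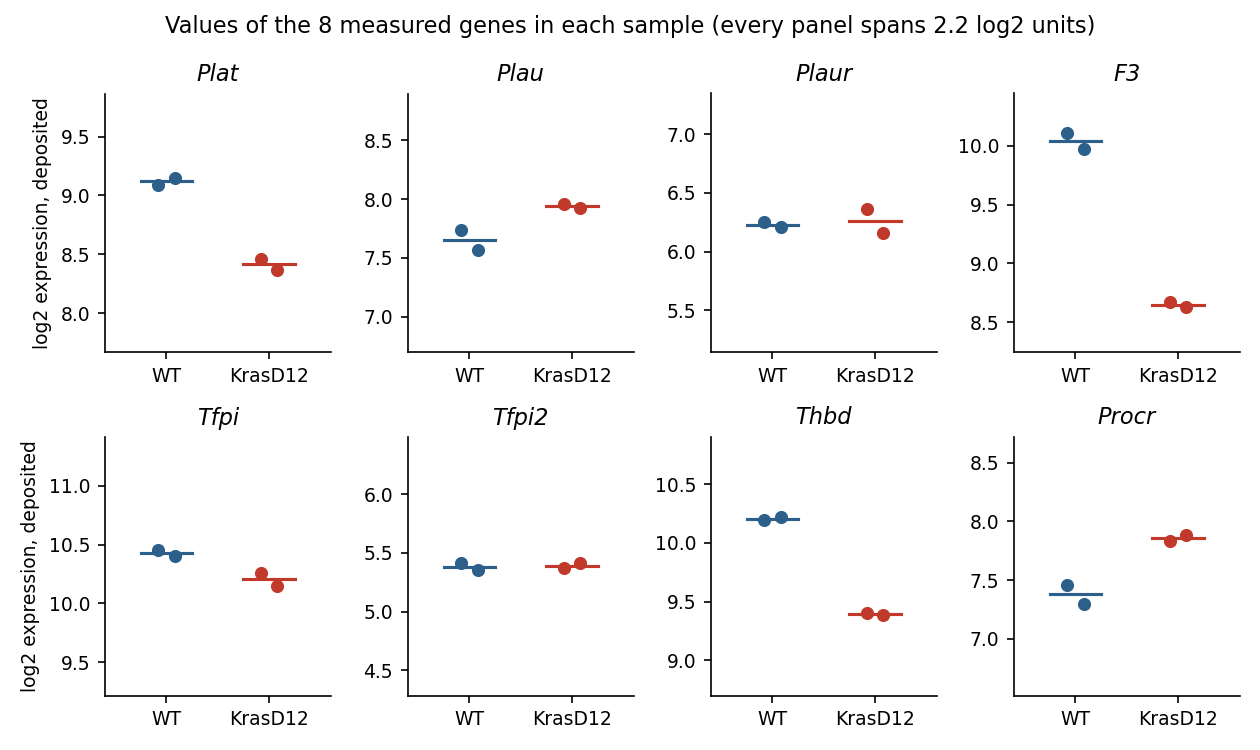
Deposited log2 values of the 8 genes (y axis, 1 panel per gene, all panels of equal span) in the 2 WT samples (blue) and the 2 KrasD12 samples (red), with points for samples A and B and lines for group means. F3, Thbd and Plat lie lower in both KrasD12 samples, with F3 near 8.65 in KrasD12 against 10.04 in WT, while the points of Plaur and Tfpi2 overlap.

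F3, the cell-surface trigger of clotting, had the largest difference of the 8 genes. Its log2 values were 8.67 and 8.63 in KrasD12 A and B and 10.11 and 9.97 in WT A and B. Both KrasD12 samples lay far below both WT samples, and the gap of 1.30 between the groups was wider than the 0.14 between the WT samples. The difference was -1.39 ± 0.08 (limma adjusted p = 0.000440; 95% interval -1.59 to -1.19), with means of 8.65 ± 0.03 and 10.04 ± 0.10 (SD, n = 2). After quantile normalization it was -1.45 ± 0.08 (limma adjusted p = 8e-05). F3 was the 121st largest of the 2298 falls among all genes. It was the 1 gene of the 8 that was at least 2-fold lower on both scalings, as 1.28% of all genes were. Its 95% interval did not overlap that of any other of the 8 genes on either scaling.

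Tfpi and Tfpi2 were measured beside F3. Tfpi, the Kunitz-type inhibitor of activated factor X and of the tissue factor complex, had log2 values of 10.26 and 10.15 in KrasD12, against 10.45 and 10.40 in WT. Both KrasD12 samples lay below both WT samples, by a small gap of 0.14. The difference of -0.22 ± 0.07 was called on the deposited values (limma adjusted p = 0.0469) and not after quantile normalization (-0.19 ± 0.08, adjusted p = 0.0893). Tfpi2, a relative of Tfpi that inhibits plasmin and other matrix-bound serine proteases, had values of 5.37 and 5.41 in KrasD12, against 5.41 and 5.35 in WT. The samples of the groups overlapped, only a little above the dim level, with a difference of 0.01 ± 0.07 (limma adjusted p = 0.905). Its direction turned with the scaling, to -0.38 ± 0.07 after quantile normalization (limma adjusted p = 0.00716), where most dim genes no longer lie higher in KrasD12.

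F3 was also set against Tfpi and Tfpi2 within each array. The log2 value of F3 minus that of Tfpi was -1.59 and -1.52 in KrasD12, against -0.34 and -0.43 in WT, a difference between groups of -1.17. F3 minus Tfpi2 was 3.30 and 3.22 in KrasD12, against 4.70 and 4.62 in WT, a difference of -1.40. As Tfpi2 lay only a little above the dim level and differed by 0.01, this pair largely restates the fall of F3. In both pairs the 2 KrasD12 samples lay below the 2 WT samples. The exact two-sided permutation test gave p = 0.333 for each of these 2 pairs, the smallest that 2 against 2 samples allow, so it could not pass a threshold. Only the change between groups is read here, since levels of different probes cannot be compared. The pairs planned with Serpine2 were not analysed here.

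**Figure D2:**
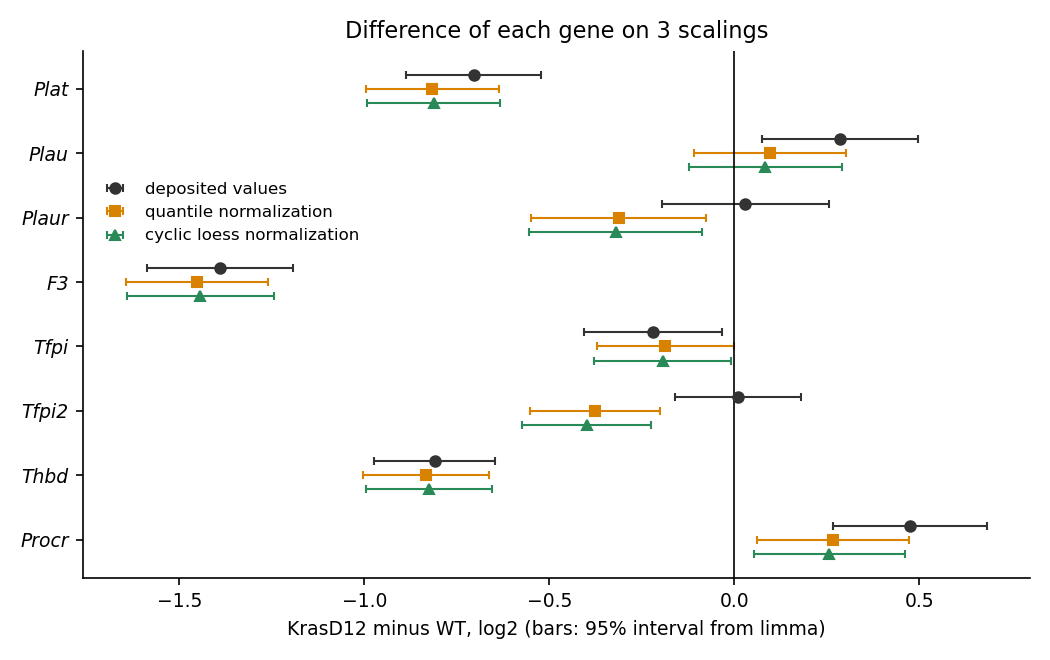
KrasD12 minus WT on the log2 scale (x axis) for each of the 8 genes (rows) on the deposited values (circles), after quantile normalization (squares) and after cyclic loess normalization (triangles), with bars for 95% intervals from limma. F3, Thbd and Plat lie left of 0 on all 3 scalings and Procr right of it, while Plaur and Tfpi2 move from near 0 to between -0.31 and -0.40.

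The protein C arm moved in opposite directions. Thbd, the thrombin receptor that switches thrombin from clotting to protein C activation, had log2 values of 9.40 and 9.39 in KrasD12, against 10.19 and 10.22 in WT. The samples within each line were nearly equal, and the gap of 0.79 between the groups was far wider than either spread. Thbd fell by 0.81 ± 0.07 (limma adjusted p = 0.000821), and the quantile value was -0.83 ± 0.07 (limma adjusted p = 0.000380).

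Procr, which binds protein C next to thrombomodulin, had values of 7.83 and 7.88 in KrasD12, against 7.46 and 7.30 in WT. Both KrasD12 samples lay above both WT samples. Procr rose by 0.48 ± 0.08 (limma adjusted p = 0.00554), and by 0.27 ± 0.09 after quantile normalization (limma adjusted p = 0.0414). The rise of Procr was the weakest of the 4 calls: it was lost with each column centred on its median (0.13, adjusted p = 0.245), under limma's treat at 1.2-fold, and with any of the 4 arrays left out (deposited adjusted p from 0.0556 to 0.0995). Genes within 0.5 log2 units of the mean of Procr had a median difference of 0.20 on the deposited values, and relative to it Procr stood at 0.275. By size on the deposited values its rise ranked 3797.5 among the 4459 rises of all genes, with tied ranks averaged.

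Of the 2 plasminogen activators, Plat fell and Plau was not called on both scalings. Plat, which works mainly on fibrin and cell-surface plasminogen, had log2 values of 8.46 and 8.37 in KrasD12, against 9.09 and 9.15 in WT. The KrasD12 samples lay below the WT samples by a gap of 0.63, against at most 0.09 within a line. Plat fell by 0.71 ± 0.07 (limma adjusted p = 0.00134), and the quantile value was -0.82 ± 0.07 (limma adjusted p = 0.000499).

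Plau, the activator of pericellular proteolysis, had values of 7.96 and 7.92 in KrasD12, against 7.74 and 7.57 in WT. Both KrasD12 samples lay above both WT samples, and the gap of 0.18 was about as wide as the 0.17 between the WT samples. Its difference of 0.29 ± 0.08 passed as deposited (limma adjusted p = 0.0306) but not after quantile normalization (0.10 ± 0.09, adjusted p = 0.386), and centring turned its sign (-0.06). The 95% interval of the quantile difference of Plau ran from -0.11 to 0.30, apart from that of Plat (-0.996 to -0.64). Plaur, the urokinase receptor, had values of 6.36 and 6.16 in KrasD12, against 6.25 and 6.21 in WT, so the groups overlapped. Its difference was 0.03 ± 0.09 on the deposited values (limma adjusted p = 0.784), and the direction turned to -0.31 ± 0.10 after quantile normalization (limma adjusted p = 0.0394).

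**Figure D3:**
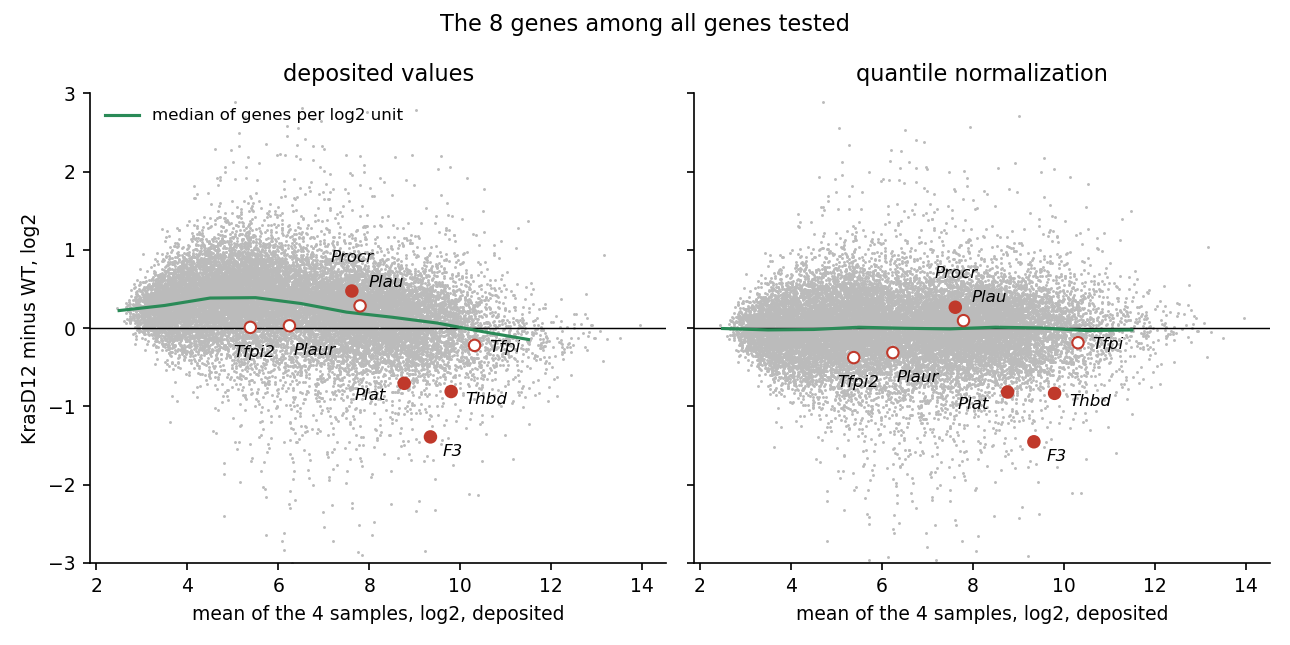
KrasD12 minus WT on the log2 scale (y axis) against the mean of the 4 samples (x axis, log2, deposited) for all genes (grey) and the 8 genes (filled red where called on both scalings, open where not), on deposited values (left) and after quantile normalization (right); 24 genes lie outside the plotted range on either scaling. The green line, the median of genes in each log2 unit of mean, lies above 0 for dim genes on the left and near 0 on the right, and F3, Thbd and Plat lie below it in both panels.

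Set against genes of like mean, the falls were at least as large. The median difference of genes within 0.5 log2 units of the mean was 0.07 for F3, 0.06 for Thbd and 0.11 for Plat on the deposited values, and relative to it these 3 stood at -1.46, -0.87 and -0.81. Plau lay 0.10 above the median of its neighbours, and Tfpi2 and Plaur lay below theirs, whose medians were 0.40 and 0.34. When either WT array was left out, 0 of 19938 genes passed limma's test on the deposited values (9846 and 10022 at an unadjusted p under 0.05, 5 and 4 of the 8 genes among them), so the calls of F3, Thbd and Plat ended there too, at adjusted p from 0.0530 to 0.0554. Their differences in those fits ran from -1.46 to -1.32 for F3, -0.83 to -0.80 for Thbd and -0.74 to -0.68 for Plat, and quantile values alone kept adjusted p from 0.0142 to 0.0253.

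By the root mean square distance over the 4 samples, each gene centred on its own mean, the genes most like F3 among 13823 others above the dim level were Ormdl2 (distance 0.018 log2 units), Fads3 (0.032) and Mvd (0.036). Their differences were -1.36, -1.44 and -1.40. The genes most like Procr were 6430628N08Rik (0.0043), Git1 (0.0083) and Acot6 (0.0087), with differences between 0.465 and 0.47. With 2 lines, such likeness describes little more than an equal difference.

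Other genes listed with the plasminogen system, in a list written with earlier results of these data known, changed in both directions. Of 16 measured genes of 19 listed, 4 rose, 3 fell and 9 were not called. That is 43.8% called, beside 33.9% of all genes and 39.5% of genes above the dim level. Their medians were 0.26 as deposited and -0.0022 on quantile values, close to those of all genes. S100a10 and Anxa2, which form the annexin A2 complex that binds plasminogen and its tissue activator on the cell surface, fell together. S100a10 had log2 values of 11.18 and 11.10 in KrasD12, against 11.93 and 11.87 in WT, and Anxa2 had 10.68 and 10.55 in KrasD12 and 11.36 in each WT sample. The groups were apart for both genes, with differences of -0.76 ± 0.07 for S100a10 (limma adjusted p = 0.00110) and -0.75 ± 0.08 for Anxa2 (limma adjusted p = 0.00130).

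The remaining fall counted in that list, and its largest, was Masp1, by 1.16 ± 0.08 (limma adjusted p = 0.000682). Masp1 is a serine protease of the lectin complement pathway and not a plasminogen system gene proper. Serpini1, the inhibitor of tissue plasminogen activator called neuroserpin, rose by 1.16 ± 0.07 (limma adjusted p = 0.000508). The other 3 rises, named after their values were seen, were the endocytic receptors Mrc2 (0.52), Lrp1 (0.38) and Igf2r (0.27). Lrp1 takes up complexes of plasminogen activators with their inhibitors, and Mrc2 is a collagen receptor that associates with the urokinase receptor. With each column centred on its median these 3 calls were lost and the sign of Igf2r turned (-0.08), and without KrasD12 B those of Lrp1 and Igf2r were lost (adjusted p = 0.0506 and 0.0628, limma, deposited). Treat at 1.2-fold also ended the calls of Lrp1 and Igf2r (deposited adjusted p = 0.185 and 0.815). Plasminogen itself (Plg) stood at 5.05 in both KrasD12 samples and at 4.49 and 4.51 in WT, below the dim level. The listed genes Cpb2 and Eno1, and Klkb1 and F2rl1 of the lists below, were not analysed here.

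Of 16 clotting factors, fibrinogen chains and crosslinking enzymes measured, 2 rose, 2 fell and 12 were not called, and 9 of the 16 lay below the dim level in both groups. Tgm2, tissue transglutaminase, which crosslinks matrix proteins, had log2 values of 7.85 and 7.75 in KrasD12, against 10.64 and 10.66 in WT. Tgm2 fell by 2.85 ± 0.07 (limma adjusted p = 8.6e-05), more than any of the 8 genes. F13a1, the chain of factor XIII that crosslinks fibrin, rose by 0.91, and F2, prothrombin, fell by 0.36. But both genes lay under that level in KrasD12 and in WT, where differences can be compressed. The fibrinogen chain Fga rose by 0.72, from a WT mean under that level. On quantile values the differences were 0.49 for F13a1, -0.76 for F2 and 0.31 for Fga. The calls of F13a1, Fga and F2 ended under limma's treat at 1.2-fold. Those of Fga and F2 were also lost with any 1 array left out. The call of F13a1 was lost without KrasD12 B and without either WT array. The median of this list was 0.29 as deposited and -0.05 on quantile values.

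Among 7 measured genes of the anticoagulant system 1 rose, 0 fell and 6 were not called (14.3% called, beside 33.9% of all genes). As deposited, 3 were called higher and 0 lower, beside 50.1% and 11.9% of all genes, and 4 had an unadjusted limma p under 0.05. The rise was that of Pros1, protein S, the cofactor of activated protein C, which had log2 values of 11.18 in each KrasD12 sample and 10.83 and 10.73 in WT (0.40 ± 0.07, limma adjusted p = 0.00605). That call was lost after centring (0.06, adjusted p = 0.578), under treat (0.142) and with any 1 array left out (deposited adjusted p from 0.0558 to 0.0742). Serpina10, the protein Z-dependent inhibitor, and Serpinc1, antithrombin, differed by 0.63 and 0.41 as deposited and missed the threshold on quantile values (limma adjusted p = 0.0534 and 0.909). The median of the 7 was 0.18 as deposited and -0.10 on quantile values.

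Of 3 measured receptors cut by thrombin and related proteases, 0 were called by limma on both scalings. Only F2rl3 had an unadjusted limma p under 0.05 on the deposited values, where it was higher in KrasD12. F2rl2 lay below the dim level in both groups. It was called lower after quantile normalization (-0.49, limma adjusted p = 0.0145) and after cyclic loess normalization (-0.47, limma adjusted p = 0.0194). F2r, the main thrombin receptor of fibroblasts, had log2 values of 10.94 and 10.87 in KrasD12, against 10.83 and 10.79 in WT. Its difference was 0.10 ± 0.07 (limma adjusted p = 0.271) and turned to -0.25 with the columns centred. F2rl3 differed by 0.50 as deposited and by 0.11 on quantile values (limma adjusted p = 0.334). The median of the 3 was 0.10 as deposited and 0.11 on quantile values.

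Of 5 genes of vitamin K-dependent carboxylation and its substrates, 2 fell and 0 rose (40.0% called, beside 33.9% of all genes). On the deposited values 0 were called higher as well, and 2 had an unadjusted limma p under 0.05, both lower. Gas6, a carboxylated ligand of receptor kinases, fell by 2.90 ± 0.07 (limma adjusted p = 8.7e-05), and Nqo1, a quinone reductase, by 0.37 ± 0.10 (limma adjusted p = 0.0223). The quantile difference of Nqo1 was -0.70, and on the deposited values its call was lost under treat at 1.2-fold (adjusted p = 0.354) and with any 1 array left out (0.0634 to 0.211). The carboxylase gene Ggcx (0.06 ± 0.07) and the reductase gene Vkorc1 (0.10 ± 0.09) were not called. The median of the 5 was 0.00 as deposited and -0.08 on quantile values. Over the 47 genes of the 5 lists, 7 rose and 7 fell, or 29.8% called, beside 33.9% of all genes.

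**Figure D4:**
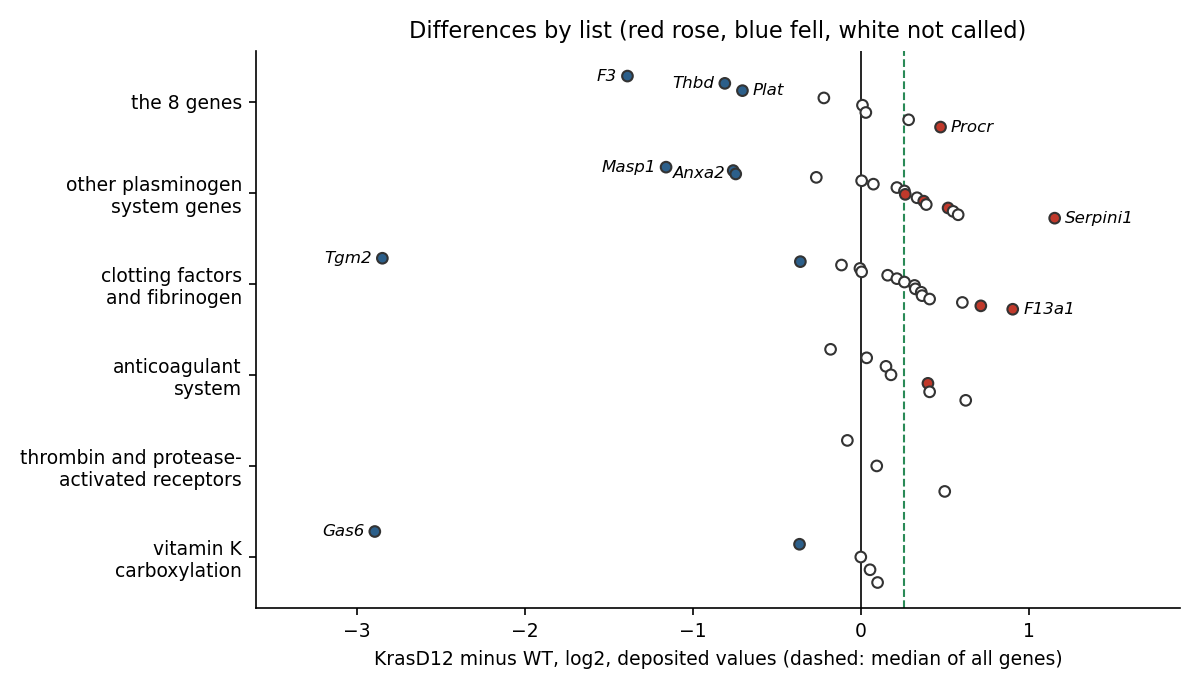
KrasD12 minus WT on the log2 scale (x axis, deposited values) for the 8 genes and the genes of the 5 lists (rows, 1 point per gene; red rose, blue fell, white not called on both scalings), with the median of all genes, 0.26, as a dashed line. F3 at -1.39, Masp1 at -1.16, Tgm2 at -2.85 and Gas6 at -2.90 stand at the low end of their lists, while the white points lie between -0.27 and 0.63.

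Marker genes of cell types that could share the culture were read beside these values. In bulk RNA, fewer cells of a type and less RNA per cell cannot be told apart. The 8 fibroblast markers all lay above the dim level in both groups, with summed log2 levels from 88.92 to 89.01 in KrasD12 and 89.90 to 89.93 in WT, 1 of them rising and 2 falling. All 5 markers of myofibroblasts and smooth muscle fell, beside 11.5% of all genes. Their summed levels were 44.51 to 45.18 in WT and 36.23 to 36.88 in KrasD12, the same samples in which F3, Thbd and Plat fell. Their part in these falls was not tested.

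Thbd, Procr and Plat are also typical of endothelium. Of 10 endothelial markers, 0 were called by limma on both scalings, beside 33.9% of all genes. On the deposited values 7 were called, all higher in KrasD12, beside 50.1% of all genes called higher. An unadjusted limma p under 0.05 was likewise found for 7, beside 13377 of 19938 genes. After quantile normalization 1 was called, lower, beside 24.4% of all genes called lower. Pecam1, Cdh5, Kdr, Emcn and Erg lay under the dim level in KrasD12 and in WT. The summed level of the 10 was 53.63 to 54.24 in KrasD12 and 50.12 to 51.20 in WT, on deposited values. Their median difference was 0.31 as deposited and -0.07 on quantile values. Their part in the results was not tested. Of 5 mesothelial markers 0 were called by limma on both scalings. An unadjusted limma p under 0.05 was found for 4, of which 3 were higher in KrasD12 and Msln lower. Deposited values alone gave 2 called higher and 0 lower, and quantile values alone 0 higher and 2 lower. The summed level of the 5 was 28.45 to 28.99 in KrasD12 and 27.96 to 28.02 in WT. Their median difference was 0.27 as deposited and -0.15 on quantile values.

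Of 6 pericyte markers 1 rose and 1 fell, with summed levels of 39.89 to 40.43 in KrasD12 and 38.54 to 38.95 in WT, and Rgs5 was below the dim level in both groups. Of 8 epithelial markers 2 rose, Sftpc and Sftpb, with summed levels of 44.39 to 45.31 in KrasD12 and 40.93 to 41.01 in WT. Epcam and Krt5 were below the dim level in both groups, and Cdh1 was below it in WT. Sftpc rose from a WT mean of 4.345, below the dim level, to 5.265 in KrasD12, only a little above it. Sftpb had a WT mean of 5.25, also near that level. Of 6 leukocyte markers 1 rose, Adgre1, and 1 fell, Csf1r, with summed levels of 30.68 to 31.06 and 28.71 to 28.88. Adgre1, Itgam and Ptprc were below the dim level in both groups, and Csf1r was below it in KrasD12. All of these sums are of deposited values, on which most genes lie higher in KrasD12. On quantile values the list medians were 0.00 for pericyte, 0.17 for epithelial and 0.10 for leukocyte markers. The part of these cells in the results was not tested.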

How the data were processed

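RNA of 4 samples was measured on arrays. The authors deposited log2 expression values for each row and sample, a scale read from the values themselves. Per the submitters' processing notes the Transcriptome Analysis Console was used. Its version, the background correction and how arrays were normalized are not given in the sources used. For arrays, their number limits the precision. The table holds 28944 rows, of which the platform annotation pairs 21789 with 1 symbol, 1621 with several and 5534 with none. Rows with several or no symbols were left out. Names were updated through the gene table of assembly GRCm38.p6 (21698 rows matched). The row with the highest mean stood for each of the 999 genes with several rows. Receptor rows behind the dim level numbered 1205, and their means were cut at the 95th percentile.

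Genes were tested with limma 3.58.1 (lmFit, eBayes, group as the only term, two-sided) in R 4.3.3, with Benjamini-Hochberg adjustment over 19938 genes, once as deposited and once with all rows quantile-normalized. The script was tested on simulated data. Python 3.11.15 with pandas 2.3.3 summarised the fits and matplotlib 3.10.9 drew the plots. Named genes are all members, up to 4 called genes per list with the largest differences (or the 2 largest where under 2 were called) and the 3 genes most like the largest rise and fall. Mrc2, Lrp1, Igf2r, Pros1, Plg, F2rl2, Ggcx, Vkorc1 and the single cell type markers named fall outside that rule and were chosen after their values were seen. The members and lists were chosen with earlier results of these data known. Alternatives were single scalings, median centring, cyclic loess, the replicate letter as a block, a filter on dim genes, eBayes robust or with trend, averaging the rows of a gene, each array left out, and treat at 1.2-fold.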

Additional observations from a re-analysis of the deposited data

How the results depend on the processing

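Kept under the block, the dim filter, robust eBayes, the mean of rows and treat were the 3 falls (F3, Thbd and Plat); eBayes with trend added Tfpi, for 4. Members that fell numbered 5 on quantile or cyclic loess values alone and 6 after centring, and 0 to 3 with 1 array left out. Members that rose numbered 2 on the deposited values alone, 0 after centring, under treat at 1.2-fold and with the replicate block (Procr, quantile adjusted p = 0.0516), and 0 with any 1 array left out. The deviations of KrasD12 A and WT A from their group means had a correlation of 0.013 over 19938 genes. That does not show that the letters A and B pair the samples, and it cannot exclude it. With the block 4447 genes rose and 1869 fell, against 4459 and 2298. Of the named genes the block also ended the call of Nqo1 (limma, deposited adjusted p = 0.0782).

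Over all genes, 9991 rose on the deposited values alone and 1365 under treat. Falls numbered 4861 on quantile values, 4933 after cyclic loess, 6657 after centring and 923 under treat. With 1 array left out, 0 to 2112 rose and 0 to 1104 fell; the lone array of a group is then assumed to vary like the others. Over the 5 lists, 21 rose on the deposited values and 2 under treat, 13 fell on quantile and on cyclic loess values and 16 after centring, and with 1 array left out 0 to 5 rose and 0 to 5 fell.

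F3 minus Tfpi was -1.27 on quantile and -1.25 on cyclic loess values and -1.22 to -1.13 with 1 array left out; F3 minus Tfpi2 was -1.08, -1.04 and -1.44 to -1.36. Centring turned the signs of Plau (-0.06), F2r (-0.25) and Igf2r (-0.08). Plaur stood at -0.31 on quantile, -0.32 on centred and -0.32 on cyclic loess values and from -0.07 (without KrasD12 A) to 0.13 with 1 array left out. Tfpi2 stood at -0.38, -0.34 and -0.40 on these scalings, and from -0.02 (without WT B; -0.01 without KrasD12 B) to 0.04 with 1 array left out. The cause was not tested. Dim signal limits Tfpi2 and most clotting factors.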
